A study of Arabidopsis thaliana with 4 samples.

Results

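IQD genes encode plant proteins with a conserved IQ domain, a stretch of helices through which they bind calmodulin and related calcium sensors. Many IQD proteins lie along microtubules, at the plasma membrane or in the nucleus, where they are thought to link calcium signals to the cytoskeleton, to cell shape and to gene activity. The founding member, IQD1, is known for raising glucosinolate levels, and several relatives bind kinesin light chain-related proteins.

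The genes described here are 7 listed IQD genes of Arabidopsis thaliana: iqd33 (AT5G35670), IQD30 (AT1G18840), iqd21 (AT3G49260), IQD23 (AT5G62070), IQD31 (AT1G74690), IQD24 (AT5G07240) and IQD28 (AT1G14380). Each was found through its 1 probe set paired with that gene alone in the platform annotation, out of 22810 probe sets on the array. The family has 33 loci in all, of which 15 had such a probe set; the 8 that were not listed are given below for comparison. The set was chosen by the DEX and mock values of these same arrays, around the fall of iqd33, and how the other 6 were picked out of the family is not recorded. The DEX and mock values of the 7 listed genes are therefore a description, and no test of them is offered as support.

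The samples were whole rosettes of 46-day-old Arabidopsis plants, C24 background, transformed with a construct for inducible overexpression of ORS1, a NAC transcription factor known to promote leaf senescence. In the DEX group, 2 arrays came from plants sprayed with 30 µM dexamethasone, the steroid that switches the construct on; in the mock group, 2 arrays came from plants of the same kind sprayed with 0.05% ethanol. Harvest followed 5 h later, and the comparison asks which genes change soon after ORS1 is induced. All 4 samples carry the construct and no plant without it was treated, so DEX itself and ORS1 cannot be told apart; the labels give neither the type of construct nor the number of lines or of plants per array. ORS1 itself was not analysed here, as none of the annotated probe sets names it.

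Of the 7 genes, iqd33 stood apart in size. Its log2 expression values were 4.72 and 4.77 on the DEX arrays, against 5.85 and 5.87 on the mock arrays. Both DEX values were low and both mock values high, with a gap of 1.08 between the groups. Replicate 1 minus replicate 2 was -0.053 on the DEX arrays and -0.021 on the mock arrays. Over all probe sets tested that difference had an SD of 0.21 on the DEX arrays and 0.37 on the mock arrays. Because iqd33 was chosen on these same values, its close replicates are a description. The means were 4.75 ± 0.038 after DEX and 5.86 ± 0.015 after mock (SD, n = 2 arrays each), a log2 change of -1.12 ± 0.13 (SE) or 2.17-fold lower. In bulk rosettes, fewer cells expressing a gene and less RNA per cell cannot be told apart. The DEX values lay near the level of 4 used here as a filter on low values.

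**Figure D1:**
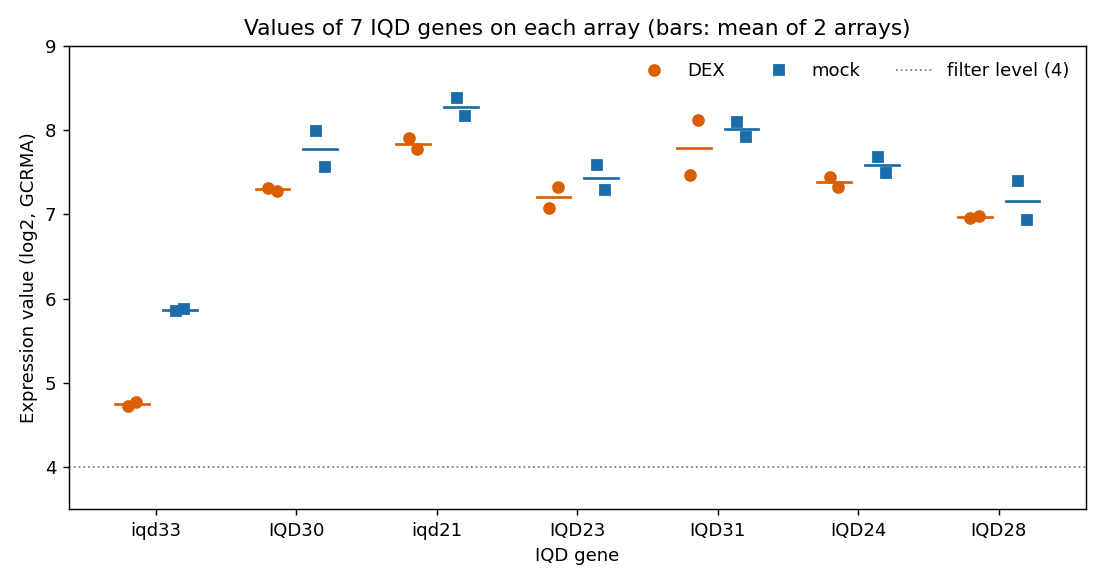
Log2 expression values (vertical axis) of the 7 listed IQD genes (horizontal axis) on each array, with 2 DEX arrays to the left of 2 mock arrays per gene and bars at the means. The values of iqd33 were 4.72 and 4.77 on the DEX arrays against 5.85 and 5.87 on the mock arrays, while the groups of the other 6 genes lay close together or overlapped.

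In a limma fit over the 19883 probe sets tested, 1 of the 7 listed genes, iqd33, was called lower and 0 were called higher at an adjusted p under 0.05. Over all probe sets tested, 0.201% were called lower and 0.246% higher. All 7 passed the filter, with all 4 arrays at 4 or above. Among the 6 relatives 0 were called, and 1 of them (IQD30) had an unadjusted p under 0.05, which 8.78% of all probe sets tested had. The 7 log2 changes had a median of -0.23, beside -0.012 over all probe sets tested.

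IQD30 and iqd21 had the next largest changes, both much smaller on the log2 scale (-0.48 and -0.44, against -1.12). IQD30 had values of 7.31 and 7.28 on the DEX arrays, against 7.99 and 7.57 on the mock arrays. The DEX pair agreed closely and lay below both mock values, of which that of mock replicate 1 was the higher by 0.42. The log2 change of IQD30 was -0.48 ± 0.20 (SE). iqd21 had 7.90 and 7.78 on the DEX arrays, against 8.39 and 8.17 on the mock arrays, again without overlap. Its log2 change was -0.44 ± 0.19 (SE). Neither gene was called. The 95% intervals of the fit were -0.94 to -0.022 for IQD30 and -0.87 to 0.00074 for iqd21, the latter just spanning 0. Falls as large as the lower ends could thus not be set aside for these 2 genes with 2 arrays per group. Without mock replicate 2, where the mock group is a single array, both were called (limma adjusted p = 0.0164 for IQD30 and 0.0366 for iqd21), and the listed genes called numbered 3. In that fit 6.98% of all probe sets tested were called lower and 9.07% higher, so these calls are no result about the 2 genes.

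The other 4 relatives had small negative changes. IQD24 had 7.44 and 7.32 on the DEX arrays, against 7.68 and 7.49 on the mock arrays. Its groups were separated by 0.044, less than the difference between the replicates of either group, and its log2 change was -0.20 ± 0.18 (SE). IQD23 had 7.07 and 7.33 on the DEX arrays, against 7.58 and 7.29 on the mock arrays. The second DEX value exceeded the second mock value, so the groups overlapped, with a log2 change of -0.23 ± 0.19 (SE).

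IQD28 had 6.96 and 6.98 on the DEX arrays, against 7.40 and 6.93 on the mock arrays. Mock replicate 2 lay below both DEX values, and the log2 change of -0.19 ± 0.20 (SE) rested on mock replicate 1: without that array it was 0.045. IQD31 had 7.47 and 8.12 on the DEX arrays, against 8.10 and 7.92 on the mock arrays. Its DEX pair was the least even of the 7 genes (SD 0.46, n = 2), with its highest and lowest values both on DEX arrays. Its log2 change was -0.22 ± 0.24 (SE) and turned to 0.11 without DEX replicate 1. The 95% intervals of these 4 genes spanned 0, from -0.61 to 0.21 for IQD24, -0.67 to 0.21 for IQD23, -0.64 to 0.26 for IQD28 and -0.78 to 0.34 for IQD31.

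Both DEX arrays lay below both mock arrays for 4 of the 7 listed genes (iqd33, IQD30, iqd21 and IQD24), and the groups overlapped for the other 3. Over all probe sets tested, 19.8% had both DEX arrays below both mock arrays and 18.1% had them above. With 2 arrays against 2, an exact two-sided permutation test of a single gene cannot give a p below 0.333.

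The contrast of iqd33 with its relatives was followed array by array, after subtracting each gene's own mean over the 4 arrays, since the levels of different probe sets cannot be set against each other. On this scale iqd33 stood at -0.59 and -0.53 on the DEX arrays, against 0.55 and 0.57 on the mock arrays. The mean of the 6 relatives stood at -0.20 and -0.093 on the DEX arrays, against 0.30 and -0.0016 on the mock arrays. The relatives' mean was thus highest on mock replicate 1, while mock replicate 2 lay nearer to the DEX arrays, though above both. iqd33 was at nearly the same height on both mock arrays. Without mock replicate 1 the relatives' mean change was -0.15, with 5 of the 6 negative. The change of iqd33 exceeded the relatives' mean change (-0.29) by -0.82 on the log2 scale. The spread of that difference between replicates was 0.038 on the DEX arrays and 0.22 on the mock arrays (SD, n = 2). Leaving out 1 array at a time gave -0.66 (without mock replicate 2) to -0.98 (without mock replicate 1). Because iqd33 was chosen for its fall, the size of this contrast is a description.

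**Figure D2:**
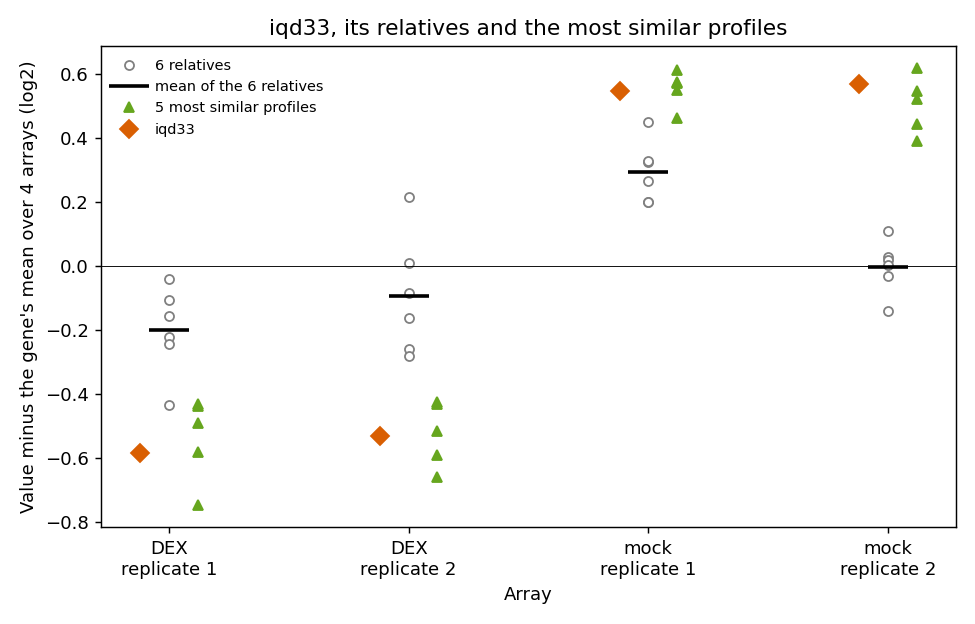
Each value minus the gene's mean over the 4 arrays (log2, vertical axis) on each array (horizontal axis), for iqd33 (diamonds), its 6 relatives (open circles, with their mean as a bar) and the 5 genes with the most similar profiles (triangles). iqd33 was at -0.59 and -0.53 on the DEX arrays against 0.55 and 0.57 on the mock arrays, while the relatives' mean was at -0.20 and -0.093 against 0.30 and -0.0016.

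The 8 IQD genes that were not listed showed no common direction. IQD26, iqd32, IQD22 and IQD16 had negative log2 changes of -0.42, -0.37, -0.35 and -0.030. IQD18, iqd15, IQD19 and IQD27 had positive ones of 0.052, 0.067, 0.11 and 0.27. IQD16, iqd15 and IQD27 lay near 4, the level chosen for the filter. Their means were 4.49, 4.24 and 4.33 after DEX, against 4.52, 4.17 and 4.06 after mock. The lowest value of any probe set was 2.59, and whether a fall is missed near 4 was not tested. IQD18 was low too (5.02 and 4.97), as was IQD26, which was negative. The positive IQD19 was higher, at 6.60 and 6.49. Over all probe sets tested, 0.201% were called lower and 0.246% higher, and 8.78% had an unadjusted p under 0.05. None of the 8 was called in the limma fit (adjusted p = 0.488 to 0.984), and 1 had an unadjusted p under 0.05. That gene was IQD26, with 4.87 and 4.45 on the DEX arrays, against 5.17 and 5.00 on the mock arrays, and its log2 change was -0.42 ± 0.16 (SE), with an adjusted p of 0.488. Its DEX values lay below both mock values, but its DEX pair differed by 0.42, as much as the change.

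iqd32 had 6.67 and 6.79 on the DEX arrays, against 7.26 and 6.95 on the mock arrays, and IQD22 had 6.62 and 6.83, against 7.09 and 7.05. In these 2 genes, as in IQD26, both DEX arrays lay below both mock arrays. That held for 3 of the 8 genes and for 19.8% of all probe sets tested, and the groups of the other 5 overlapped. The log2 changes were -0.37 ± 0.18 (SE, limma adjusted p = 0.618) for iqd32 and -0.35 ± 0.17 (SE, limma adjusted p = 0.616) for IQD22. iqd32 was called without mock replicate 2 (adjusted p = 0.0472), where 6.98% of all probe sets tested were called lower too. The median change of the 8 was 0.011, beside -0.23 for the 6 listed relatives. Several of the 8 lay near the filter level, and whether falls are missed there was not tested, so these medians are not compared like for like. All 6 listed relatives were negative, 4 of the 8 unlisted genes were, and 52.8% of all probe sets tested were. Over all 15 IQD genes, iqd33 included, 11 were negative and 4 positive, with a median of -0.22. How far the listing shaped the direction of the count was not tested.

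**Figure D3:**
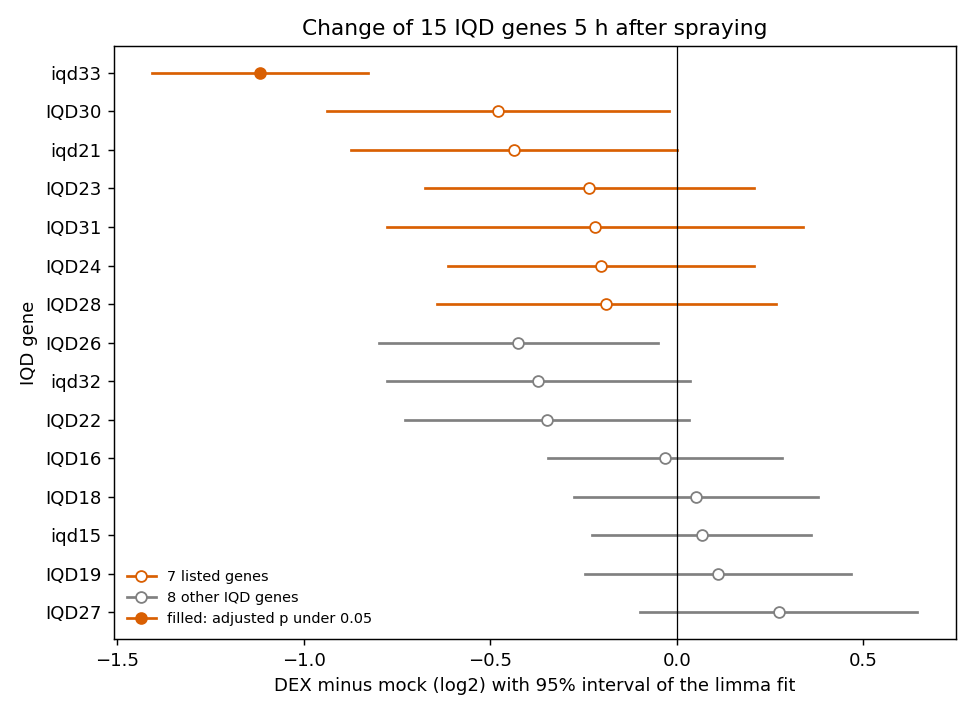
DEX minus mock log2 change (horizontal axis, points) with the 95% interval of the limma fit (lines) for 15 IQD genes (vertical axis), the 7 listed genes in colour above the 8 others in grey; a filled point marks an adjusted p under 0.05. iqd33 at -1.12 is the 1 filled point, and the 8 unlisted genes run from -0.42 to 0.27.

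Gene length moved with these values. For all genes with a length in the RefSeq table, mock replicate 1 exceeded mock replicate 2 by a median of 0.27 in the longest of 5 equal groups, and the same difference had a median of -0.25 in the shortest. In that longest group (3401 bp and more) the median DEX minus mock change was -0.083 and 70.0% of genes were negative, against 0.10 and 28.0% in the shortest. Of the 6 relatives, IQD30, iqd21, IQD31 and IQD28 lay in the longest group, with spans of 3613 to 3765 bp. IQD23 (2828 bp) lay in the group next to it, and IQD24 (2399 bp) in the middle group together with iqd33 (2324 bp). The unlisted iqd32 and IQD22, at 3810 and 3817 bp, were in the longest group too, while IQD27, iqd15 and IQD19, which were positive, spanned 1510 to 2039 bp. Among the other unlisted genes, IQD26, the most negative of the 8, spans 1918 bp, in a group with 36.6% of genes negative. IQD26 was at -0.45 with each array's length trend removed. The positive IQD18 spans 2785 bp, in the group next to the longest, where 65.4% were negative. Whether gene length causes these changes was not tested.

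Mock replicate 1 was above mock replicate 2 in all 6 relatives and gave the highest of the 4 values in 5 of them, IQD31 being the exception. Over all probe sets tested it was above mock replicate 2 in 54.3% and the highest array in 7942 of 19883. With each array's length trend removed, the log2 change of iqd33 was -1.09, and it stayed called. Those of IQD30 and iqd21 were -0.39 and -0.35, and those of the other 4 relatives ran from -0.10 (IQD28) to -0.17 (IQD24). All 6 thus stayed negative, with a median of -0.17, against -0.23 before. The excess of mock replicate 1 over mock replicate 2 shrank to 0.21 for IQD30, 0.0039 for iqd21 and 0.26 for IQD28.

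**Figure D4:**
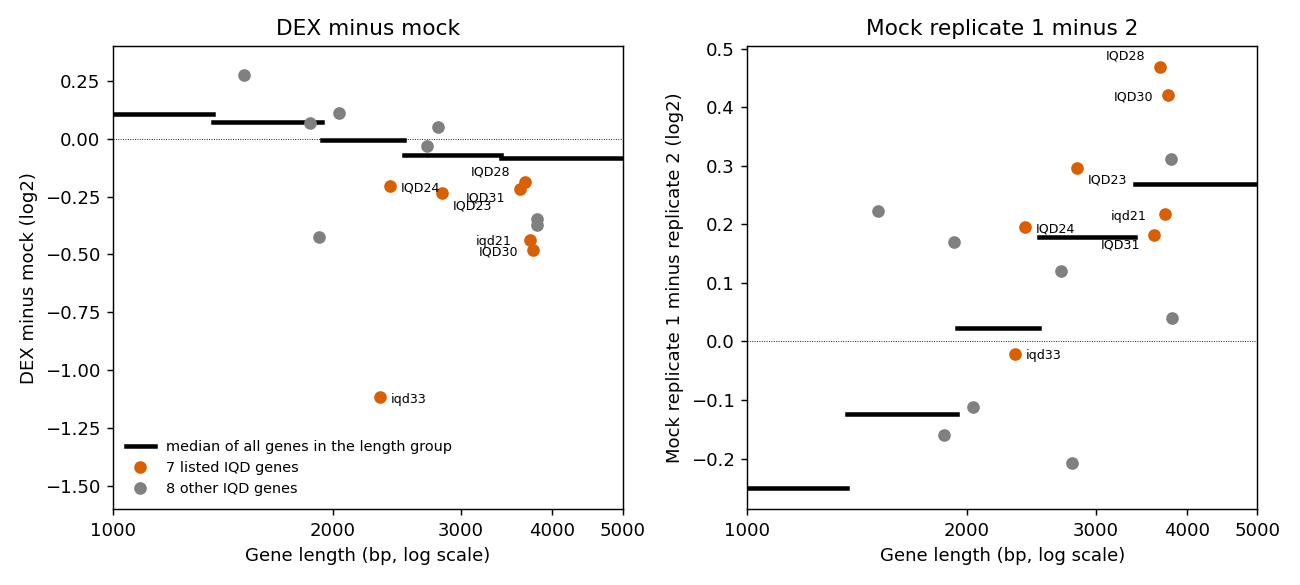
DEX minus mock log2 change (left panel) and mock replicate 1 minus mock replicate 2 (right panel, log2) against gene length (bp, log axis) for the 7 listed IQD genes (colour) and the 8 others (grey), with black lines at the median of all genes in each of 5 length groups. iqd33, at 2324 bp, had a change of -1.12 where its length group had a median of -0.0062, while the median of the longest group was -0.083.

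The 5 genes whose profiles over the 4 arrays were closest to iqd33 were sought among 11401 probe sets of 1 gene, by distance after subtracting each probe set's mean. They were AT4G35750, AT4G17470, the sugar transporter gene SWEET4 (AT3G28007), AT4G23000 and PWD (AT4G24450), a gene of the glucan water dikinase family. AT4G35750 was closest, at a distance of 0.13 log2 units, and had 9.81 and 9.96 on the DEX arrays, against 10.85 and 10.94 on the mock arrays. The other 4 lay at 0.20 to 0.21, where the median distance of all those searched was 1.14. SWEET4 had 5.69 and 6.01 on the DEX arrays, against 6.99 and 7.06 on the mock arrays. Likeness to iqd33 selects genes with a fall of about the same size, so their changes of -1.01 to -1.17 are no separate result. The closest IQD gene was IQD30, at 0.71 and in place 269, followed by iqd21 at 0.71 in place 271.

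Genes beside the listed IQD genes on the chromosome (neighbours by the RefSeq table of TAIR10.1) were not called. Over all probe sets tested, 0.201% were called lower and 0.246% higher, and 8.78% had an unadjusted p under 0.05. Of the 14 flanking protein-coding genes, 7 had a tested probe set. In the limma fit 0 of these passed, with 1 at an unadjusted p under 0.05. That one was AT5G35660, beside iqd33, whose log2 change was 0.55 ± 0.18 (SE), with an adjusted p of 0.378. AT5G35680, on the other side of iqd33, had 0.11 ± 0.25 (SE; adjusted p = 0.957).

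RNA of the proteins that IQD proteins bind was covered in part by the annotated probe sets. Calmodulin, the universal calcium sensor, is encoded by 7 listed genes, and none had a probe set paired with 1 gene here. Of 50 entries for calmodulin-like sensors, 14 were matched to genes and 8 were tested, so these 8 cannot stand for the family. Their log2 changes were positive in 8 of 8 (median 0.36), where 52.8% of all probe sets tested had negative ones. CML37 alone was called (limma adjusted p = 0.018), where 0.246% of all probe sets tested were called higher. CML37 had 4.41 and 4.51 on the DEX arrays, against 3.60 and 3.52 on the mock arrays. Both mock values were under the filter level of 4, so CML37 was tested only through the DEX arrays, where it is high, and its call is given as a description. CML41 had a larger change of 1.46 ± 0.25 (SE) that missed the threshold (limma adjusted p = 0.0598), with 9.39 and 9.69 on the DEX arrays, against 7.77 and 8.38 on the mock arrays. CML30 had 0.61 ± 0.18 (SE; adjusted p = 0.308), and the smallest changes were those of AT1G76640 (0.13) and CML43 (0.15). The count of 1 called became 0 without an intensity trend in the variance model and 0 with unmoderated variance. It became 2 with robust empirical Bayes, with a replicate block and at an adjusted p under 0.1. A filter raised to 5 removed CML37, as none of its values reached that level, so the count of 0 there says nothing of its call. Mock replicate 1 lay below mock replicate 2 in 6 of the 8, the opposite of the IQD relatives. The part of that difference, or of gene length, in these changes was not tested.

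Microtubule genes, the tracks on which many IQD proteins lie, had small and mostly negative changes. Of the 15 tubulin genes 7 were tested and 0 were called, with 0 at an unadjusted p under 0.05 (limma). Over all probe sets tested, 0.201% were called lower and 0.246% higher, and 8.78% had an unadjusted p under 0.05. Of the 7 tubulins 6 had negative changes, where 52.8% of all probe sets tested had them, and the median of the 7 was -0.17. TUB9, a beta-tubulin, had the largest change, -0.33 ± 0.23 (SE), with 10.54 and 10.36 on the DEX arrays, against 11.04 and 10.51 on the mock arrays, and TUA6, an alpha-tubulin, had -0.28 ± 0.24 (SE). The smallest were those of TUB7 (0.0081) and TUB1 (-0.037). Mock replicate 1 was above mock replicate 2 in all 7, as in the IQD relatives, and 2 were called without mock replicate 2, where 6.98% of all probe sets tested were called lower. Of 19 entries for other partners on microtubules, TON1B, which helps position the division plane, was the 1 tested, at 0.0035 ± 0.17 (SE). None of the listed calmodulin-binding transcription factors, ion channels and calcium-dependent kinases had a probe set of 1 gene in the annotation used here. That annotation did not list 8730 probe sets, so these genes may still have been measured on the array.

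The labelled tissue was checked roughly, since levels of different probe sets cannot be set against each other. Of 19 leaf marker entries, 6 photosynthesis genes were tested. All lay at 11.48 or above on every array, with changes of -0.11 to 0.13. None was called, where 0.201% of all probe sets tested were called lower and 0.246% higher. The 2 root hair genes tested out of 6 root entries, EXPA7 and EXPA18, lay between 5.13 and 5.98 on all arrays. The guard cell regulator FMA, the 1 guard cell marker tested, had a change of -0.47 ± 0.19 (SE, limma adjusted p = 0.511). Markers of flower and vascular tissue were not analysed here, and any part of cell composition in the changes of the IQD genes was not tested.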

How the data were processed

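Expression was measured on 4 Affymetrix ATH1 arrays. The deposited values are log2 expression values, 1 per probe set and array. They were made with GCRMA, per the submitters' processing notes, which state no version. The log2 scale was inferred from their range of 2.59 to 13.62 and from array medians between 6.51 and 6.55. No further normalization was applied.

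Of 22810 probe sets, 64 controls and 2863 with fewer than 2 arrays at 4 or more were left out. The test of the other 19883 used limma 3.58.1 under R 4.3.3 (a two-sided linear model with eBayes and an intensity trend, no covariate) and Benjamini-Hochberg adjustment over all of them. A call is an adjusted p under 0.05. With 2 residual degrees of freedom, SEs and p-values rest largely on the pooled variance, and the number of arrays limits precision. Replicates are called biological in the labels, so the spread that enters the p-values is one between samples. For a single gene it is largely the spread pooled over probe sets. The SE of iqd33 was 0.13 in the fit, against 0.029 with unmoderated variance. The test was tried on simulated data.

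Gene names came from the platform annotation (13513 probe sets with 1 gene, 503 with several, 8730 unlisted here), with symbols and gene lengths (span) from the RefSeq table of TAIR10.1. Named genes were the IQD family and, per pathway list, called members plus the 2 largest and 2 smallest changes; a gene was entered by its brightest probe set. The exceptions, chosen after their values were seen, are the flanking genes and tissue markers that are named. Members, lists and tests were chosen with earlier results of these data known. Alternatives covered the filter, normalization, gene length trend, variance model, threshold, replicate block, probe sets prone to cross-hybridisation and each array left out.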

Additional observations from a re-analysis of the deposited data

How the results depend on the processing

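iqd33 kept its negative change in all 16 alternatives (-1.14 to -1.09) and its call in all except the unmoderated variance, where 0 probe sets rose, 0 fell and 0 listed genes passed (adjusted p of iqd33 = 0.604); there each variance rests on 2 residual degrees of freedom. Its contrast with the relatives ranged from -0.98 to -0.66. A filter, variance model, threshold or block cannot move the change of iqd33 or the contrast, so these ranges say little of their stability. Without the intensity trend the call of iqd33 was close to the threshold (limma adjusted p = 0.0468). iqd33 was also chosen for its fall on these same arrays. Leaving out 1 array left 1 to 3 listed genes called, and gave ranges that crossed 0 for 5 genes: -0.54 to 0.11 for IQD31, -0.42 to 0.045 for IQD28, -0.17 to 0.11 for IQD16, -0.065 to 0.17 for IQD18 and -0.037 to 0.17 for iqd15. IQD16 also turned to 0.029 with the length trend removed. Over all probe sets, against 49 higher and 40 lower, 27 and 24 were called when the intensity trend was dropped, 80 higher with robust empirical Bayes, 107 and 81 at an adjusted p under 0.1, and 112 to 1803 higher and 50 to 1388 lower with 1 array left out, where the lone array is assumed to vary like the other group. In the fit limited to genes with a length, added after the data were seen, 15 and 9 were called. Replicate numbers share only a number (correlation of their deviations 0.11, 2 pairs): with a replicate block 438 were higher and 237 lower, and iqd33 alone of the listed genes was called. The number of arrays limits the precision of every change; the cause of these shifts was not tested.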
